A study of Mus musculus with 96 samples.

Results

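Nuclei of VIP interneurons in mouse visual cortex were compared with and without deletion of an enhancer of Igf1 called E1. All animals carried loxP-flanked copies of the enhancer, written Igf1-E1 fl/fl, together with 1 VIP-driven Flp allele, written VIP flp/wt. An adeno-associated virus injected into visual cortex at postnatal day 55 to 60 carried a Flp-dependent cassette under the Syn1 promoter. It encoded the nuclear tag mScarlet-KASH and either Cre recombinase, which removes the floxed enhancer, or dCre, the control that does not. Recombination is thus limited to cells that express Flp from the Vip allele and have taken up the virus. After 3 days the mice were moved to darkness for 10 to 12 days, and tagged nuclei were collected either straight from darkness or after 1 h of light. The members were every E1 VIP library, chosen by line, sorted fraction and virus from the labels: 9 Cre libraries, of which 5 were dark and 4 light, and 8 dCre libraries, of which 3 were dark and 5 light. They make up 17 of the 96 libraries of the series. The remaining libraries are VIP nuclei of the E23 and E123 enhancer lines and total nuclei of all 3 lines. Each library was made from 50 to 100 sorted nuclei with 17 PCR cycles, so that few molecules stand behind a weakly expressed gene. The labels number the libraries of a group as biological replicates but do not name the animals, so p-values measure the spread between these libraries. Gene counts do not cover the enhancer itself, and its deletion was therefore not measured here.

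Insulin-like growth factor 1 is a secreted peptide that acts through the receptor IGF1R and the PI3K, AKT and mTOR pathway. In adult neocortex its transcript is found mostly in subsets of GABAergic neurons, the VIP interneurons among them, which chiefly inhibit other inhibitory cells. Enhancers are stretches of DNA that raise transcription of a gene from a distance, and in neurons many of them respond to activity. One hour of light after long darkness is a standard way to evoke activity-dependent transcription in visual cortex.

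The 17 libraries held 3203498 to 8384071 gene counts, with a median of 5775985, and 17071 to 19991 genes with at least 1 count. Vip lay between 952 and 13266 CPM, the unit of counts scaled for library size, and Gad1, which makes GABA, between 259 and 842. Slc17a7, the vesicular glutamate transporter of cortical excitatory cells, lay between 1.64 and 34.5 CPM, against 46.1 to 118 in total nuclei. Aqp4, an astrocyte water channel, was at 0 in 8 of the 17 libraries, and the oligodendrocyte gene Mbp lay between 28.4 and 178 CPM. The labelled sex matched the sex-linked transcripts in 17 of 17 libraries.

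A pair of libraries stood apart before any comparison: dark dCre replicates 1 and 2. Both are labelled female and dark dCre replicate 3 male, while the dark Cre libraries came from 2 females and 3 males. Fits without the pair therefore hold no female dark dCre library of this line. A length index was taken as the mean log2(CPM + 1) of protein-coding genes of at least 100 kb minus that of genes of at most 10 kb. It was 4.18 and 4.19 in dark dCre replicates 1 and 2, and 2.78 in dark dCre replicate 3. The 5 dark Cre libraries had 2.41, 2.49, 2.05, 1.69 and 2.22. After light it ran from 2.15 to 3.12 with dCre and from 1.96 to 2.78 with Cre. The same replicates stood apart in total nuclei of the line, at 3.84 and 3.92 against 1.95 to 2.80 in the other 15 libraries. Long transcripts were thus over-represented in 2 of the 3 dark controls, and every result that includes them is given with and without them, or beside the comparison after light, whose own libraries do not include them.

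Igf1 was lower with Cre than with dCre in both light conditions, and no Cre library reached the lowest dCre library of its light condition. Igf1 (ENSMUSG00000020053) lies on the plus strand of chr10:87858265-87937042 in the mm10 build and spans 78.8 kb. In the dark the 3 dCre libraries had 538, 682 and 563 CPM and the 5 Cre libraries 393, 476, 374, 369.7 and 372 CPM. After light the 5 dCre libraries had 767, 732, 751, 969 and 931 CPM and the 4 Cre libraries 569.7, 579, 310.2 and 470.2 CPM. The read counts behind these values were 1469 to 5639 per library. Within each light condition the Cre libraries lay below all dCre libraries, and light Cre replicate 3 was the lowest library of all. The same complete separation downwards in both light conditions was found for 11 of 20585 genes tested, or 0.0534%. By light condition, 0.787% of genes had every Cre library below every dCre library after light and 5.88% in the dark.

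**Figure D1:**
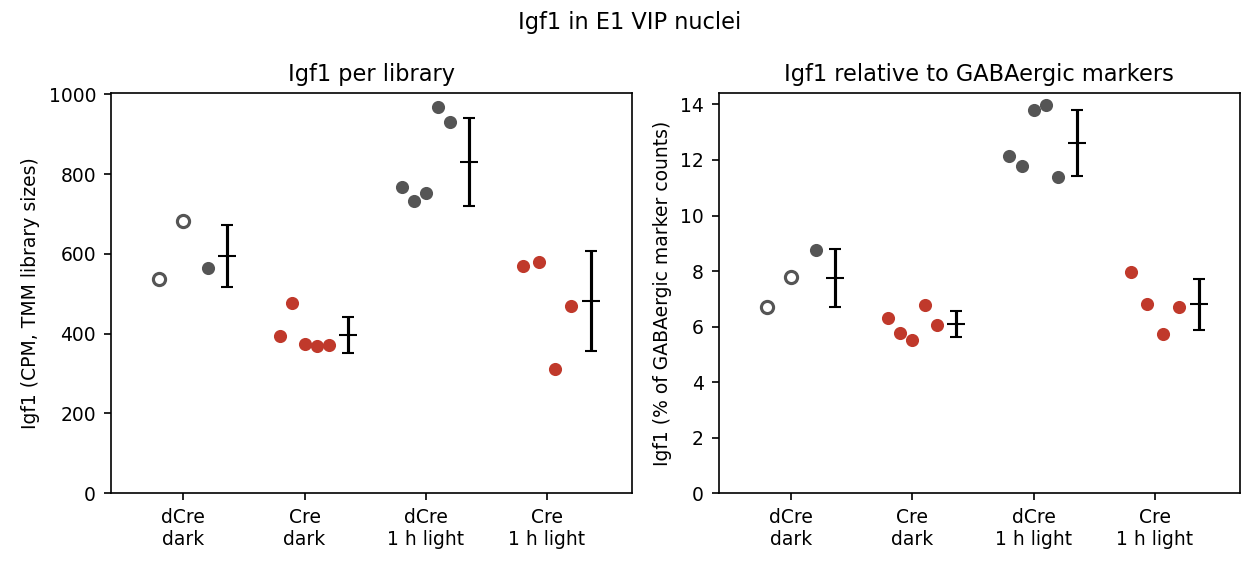
Left, Igf1 in CPM in each E1 VIP library (points; dark dCre replicates 1 and 2 open), by virus and light condition, with group mean and SD (bars); right, Igf1 counts as a percentage of GABAergic marker counts. The Cre libraries lie between 310.2 and 579 CPM after light, below the lowest light dCre library at 732, and between 369.7 and 476 CPM in the dark, below the lowest dark dCre library at 538.

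The mean with Cre was 482 ± 125 CPM after light (SD, n = 4), against 830.1 ± 111 with dCre (n = 5). In the dark it was 397 ± 45.2 CPM with Cre (n = 5) and 594 ± 77.0 with dCre (n = 3). In edgeR's quasi-likelihood test over all VIP libraries, the Cre effect averaged over both light conditions was a log2 fold change of -0.68 ± 0.161 (SE), which leaves 62.3% of the dCre level. Its Benjamini-Hochberg adjusted p over all genes was 0.0300, and 324 of 20585 genes, 1.57%, passed the threshold of 0.05 in that comparison. After light alone the edgeR log2 fold change was -0.78 ± 0.222, with an unadjusted p of 0.000874, the ninth smallest of all genes, and an adjusted p of 0.916. No gene, 0% of those tested, passed after light by edgeR, while 1095 had an unadjusted p under 0.05 and 5 passed in DESeq2. Those 5 were Il10rb, Prom1, Nostrin, Slc22a8 and Shroom4. All were at 0 in the light Cre libraries and held 4 to 46 counts over the light dCre libraries, so their fitted folds are no measure of size. In the dark the edgeR estimate for Igf1 was -0.58 ± 0.235 with an adjusted p of 0.103. The estimates in the light and in the dark differed by -0.20 ± 0.324, with an unadjusted edgeR p of 0.537, so that a difference of Cre effect between light conditions was not detectable for Igf1.

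As a single value, Igf1 was also tested by permuting the virus labels within each light condition. The averaged difference of mean log2(CPM + 1) was -0.70, with an exact two-sided permutation p of 0.000142, the smallest that the labelings allow. After light the exact permutation p was 0.00794 and in the dark 0.0179, again the smallest possible with 126 and 56 labelings. Without dark dCre replicates 1 and 2 the averaged difference was -0.66, with an exact permutation p of 0.00132. In edgeR without that pair the averaged log2 fold change was -0.65 ± 0.199, and its adjusted p rose to 0.453 as the number of genes called fell to 0. The size of the Igf1 difference was thus close to the same with and without the pair, whereas its adjusted p passed only with them. The call was also lost when 1 library was left out in 6 of 17 cases: without dark Cre replicate 4, light Cre replicate 3 or 4, dark dCre replicate 1 or 2, or light dCre replicate 1 the edgeR adjusted p was 0.0552 to 0.0827.

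**Figure D2:**
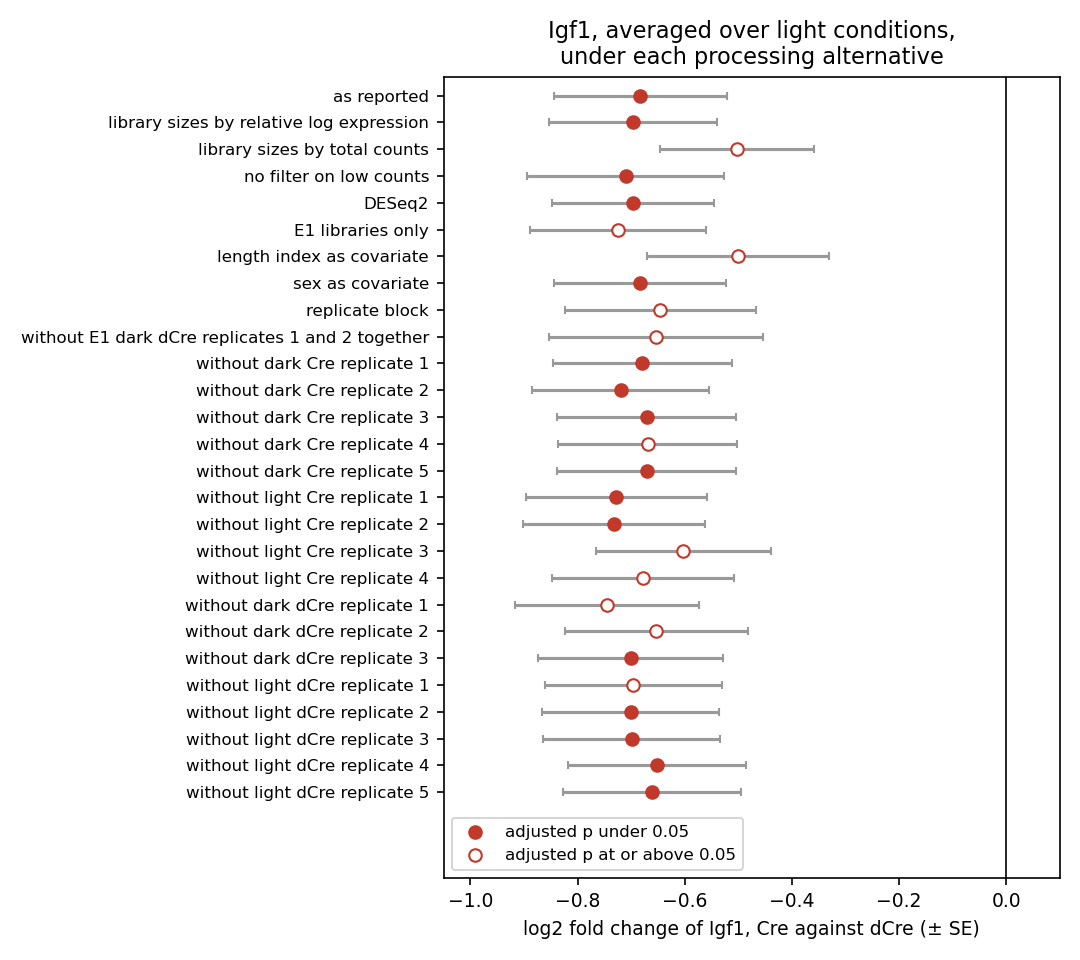
Log2 fold change of Igf1, Cre against dCre, averaged over light conditions, under each processing alternative (points with standard error). The estimates stay between -0.75 and -0.50 in all of them, and filled and open points mark adjusted p-values under and over 0.05.

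Igf1 was also set against the cell class itself. Igf1 counts as a percentage of the summed counts of 11 GABAergic marker genes were 12.6 ± 1.19% with dCre after light (SD, n = 5) and 6.80 ± 0.920% with Cre (n = 4). In the dark they were 7.75 ± 1.03% (n = 3) and 6.09 ± 0.481% (n = 5). After light the groups did not overlap, and in the dark they did. On a log2 scale the difference was -0.90 after light, with an exact permutation p of 0.00794, and -0.34 in the dark, with an exact permutation p of 0.0357. The dark difference depended on the scaling: with library sizes taken as total counts it was -0.21, with an exact permutation p of 0.179, and it was -0.26 ± 0.267 in edgeR with the length index as a covariate. After light the corresponding values were -0.80 with total counts and -0.74 ± 0.197 with the covariate. In bulk libraries like these, fewer Igf1-expressing nuclei and less Igf1 RNA per nucleus cannot be told apart.

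A promoter window of Igf1 is shown because Igf1 is the gene whose enhancer was deleted, and enhancers act on transcription from promoters. The RefSeq window on GRCm38.p6 is chr10:87860861-87861160, plus strand, and runs from 250 bases before to 50 bases after the annotated start. It lies inside the Igf1 gene body given above, which begins at 87858265. The letters below therefore describe this annotated start and not the beginning of the gene body. Capitals mark its single match to the AP-1 motif, the binding sequence of FOS and JUN proteins.
Igf1 promoter: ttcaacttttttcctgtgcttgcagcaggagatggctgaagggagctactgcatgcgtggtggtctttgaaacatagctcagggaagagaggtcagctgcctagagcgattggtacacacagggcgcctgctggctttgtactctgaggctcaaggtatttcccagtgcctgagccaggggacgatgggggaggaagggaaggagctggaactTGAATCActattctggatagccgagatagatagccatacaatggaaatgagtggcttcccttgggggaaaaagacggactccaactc
The AP-1 motif TGANTCA matched at position -37 relative to the start, as TGAATCA, and 7.81% of 32851 promoter windows of this length hold such a match on either strand. The E-box CANNTG matched once, at position -157, and 72.3% of windows hold one. Neither the cAMP-response element TGACGTCA, held by 1.79% of windows, nor its core TGACG, held by 20.8%, nor the TATA sequence TATAAA, held by 13.6%, was found on either strand of this window. These matches are descriptions of letters, not of binding.

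An antisense gene, Igf1os, overlaps Igf1, and the library chemistry does not mark strand, so reads of the overlapping part cannot be assigned to one of the pair with certainty. Igf1os had 65.4 to 110 CPM with dCre in the dark, 115 to 238 with dCre after light, 58.3 to 104 with Cre in the dark and 76.7 to 119 with Cre after light. Its values overlapped between Cre and dCre in each light condition, and the averaged edgeR log2 fold change was -0.51 ± 0.211, with an adjusted p of 0.161. Igf1os held 8.74 to 21.97% of the summed counts of both genes. The sum of both was 988.5 ± 141 CPM with dCre and 576 ± 140 with Cre after light, and 680.5 ± 63.8 and 469 ± 47.8 CPM in the dark. The sums did not overlap between Cre and dCre in either light condition.

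A difference of immediate-early genes between Cre and dCre after light was not detectable. The summed level of the immediate-early genes, the transcription factors and signalling genes switched on first by activity, was 115.6 to 209.0 CPM in the dark and 539.9 to 735.4 after light with dCre. With Cre it was 113.0 to 308.8 CPM in the dark and 537.0 to 870.9 after light. Fos, the AP-1 subunit, had 23.8, 51.2, 62.3, 57.6 and 58.7 CPM after light with dCre and 44.9, 68.0, 91.1 and 58.4 CPM with Cre. The light Cre values lay within or above the dCre range, and the edgeR log2 fold change after light was 0.37 ± 0.843, with an unadjusted p of 0.660. In the dark Fos ranged from 1.96 to 17.2 CPM with dCre and from 0.253 to 45.8 with Cre. Npas4, an activity-dependent transcription factor of neurons, had 8.70 to 30.2 CPM after light with dCre and 5.05 to 32.7 with Cre, and its log2 fold change there was 0.09 ± 0.819. None of 27 immediate-early genes tested passed the threshold after light, and their median log2 fold change there was 0.08, against -0.00 over all genes. Of 21 activity-regulated effector genes, secreted factors and synaptic regulators that follow the first wave and include Igf1, none passed after light either, with a median of -0.20. The standard errors for these genes are wide, and small differences after light were not detectable. In the dark 3 immediate-early and 5 effector genes passed as higher and 1 effector gene as lower, against 5.09% and 4.09% of all genes. Their medians there were 1.02 and 0.81, and 1.15 and 1.13 without dark dCre replicates 1 and 2. In edgeR's interaction test 0 immediate-early and 2 effector genes passed, both with a lower effect after light, against 0.277% of all genes. The interaction medians were -1.08 and -1.18, against -0.19 over all genes.

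Cux2, a homeodomain transcription factor of upper-layer neurons and some interneurons, was another gene whose Cre libraries lay below all dCre libraries in both light conditions. It lies on chr5:121856366-122050102. After light the dCre libraries had 78.7, 34.04, 18.0, 14.8 and 32.5 CPM and the Cre libraries 9.99, 6.09, 11.9 and 8.53 CPM. In the dark the dCre libraries had 39.0, 39.7 and 31.6 CPM and the Cre libraries 26.8, 19.8, 18.5, 4.16 and 9.38 CPM. Cre and dCre did not overlap in either condition. The averaged edgeR log2 fold change was -1.59 ± 0.372 with an adjusted p of 0.0299, and without dark dCre replicates 1 and 2 it was -1.49 ± 0.445, which did not pass. After light the estimate was -1.97 ± 0.530, with an unadjusted p of 0.000497. Cux2 also belongs to the list of excitatory neuron markers, the summed level of which was 685.7 to 1317 CPM with dCre and 498.9 to 1010 with Cre after light. In the dark the list summed to 540.8 to 739 CPM with dCre and 425 to 1424 with Cre, and of its 17 members Slc17a6 was at 0 in dark dCre libraries. The part of such cells in the Cux2 values was not tested.

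The other 9 genes below all dCre libraries in both light conditions included Itgb1, the common beta subunit of integrins, and the synaptic adhesion gene Lrrtm3. Itgb1 had 52.7 ± 16.9 CPM (SD, n = 5) with dCre and 24.6 ± 5.31 (n = 4) with Cre after light, and 59.5 ± 6.84 and 32.9 ± 9.77 CPM in the dark. Lrrtm3 had 409.9 ± 57.3 CPM with dCre and 258 ± 28.2 with Cre after light. It lies within Ctnna3, an alpha-catenin gene on chr10:63430098-65003667, which had 445 ± 61.9 and 286 ± 28.5 CPM. Because these genes overlap, reads in shared stretches may be split between them. For Ctnna3 the averaged edgeR log2 fold change was -0.80 ± 0.177 with an adjusted p of 0.0266. The remaining genes were Rnf130, Gm10277, Gm20642, Mtmr7, Castor2 and Dzip1.

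In the opposite direction, 11 genes, again 0.0534%, had every Cre library above every dCre library in both light conditions, and by light condition 0.7% did after light and 8.18% in the dark. Jpt2 on chr17:24937419-24960689, was at 0 in all 5 light dCre libraries, while the 4 light Cre libraries held 96 counts and 0.416 to 10.5 CPM. Against a floor of 3 counts over the group this is at least 33.7-fold higher. In the dark the 3 dCre libraries held 1 count between them, and the Cre libraries 0.507 to 11.8 CPM. Snhg11, a long noncoding RNA, had 5061 to 6618 CPM with dCre and 6999.5 to 8959.7 with Cre after light. Fam173a and AC134908.4 overlap each other and share reads, so they count as 1 observation. The others were Ankrd23, Ankrd13d, Cend1, Tmem234, Dnaaf2, AC125059.3 and Aph1a, a subunit of gamma-secretase. Of these 22 genes, all but Igf1 were selected after their values were seen, so their separation is a description and no test. After light 0.787% of all genes separated downwards and 0.7% upwards, where 1 of the 126 labelings gives complete separation in a given direction. The floor covers counting error only, and PCR copies without molecular identifiers are not independent molecules. Values after ± for these genes are SDs or edgeR standard errors, which measure spread between libraries.

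Averaged over light conditions, genes that rose with Cre were mostly short and genes that fell were mostly long. Of the 324 genes past the edgeR threshold, 191 (0.928%) were higher and 133 (0.646%) lower with Cre. The median length was 8.29 kb for those that were higher and 146 kb for those that were lower, against 18.3 kb over all genes tested. Among protein-coding genes of at most 10 kb, 106 were higher and 1 lower, whereas at 100 kb or more 1 was higher and 83 lower. With library sizes by total counts, 280 genes (1.36%) passed, 244 higher (1.19%) and 36 lower (0.175%), and the median of all genes moved from 0.06 to 0.23 on the log2 scale. In DESeq2 1326 genes (6.44%) passed, 771 higher (3.75%) and 555 lower (2.7%). Without dark dCre replicates 1 and 2, which leaves 1 dark control, no gene passed by edgeR, with 1227 at an unadjusted p under 0.05. The folds kept their sign there for 191 of the 191 higher and 130 of the 133 lower genes. Over all genes tested it was 16192 of 20585. The sets were called with the pair and both fits share the other libraries, so kept signs are no independent support. The medians of the higher and the lower genes moved from 1.33 to 0.95 and from -0.97 to -0.63. With the length index as a covariate, no gene passed either, with 1205 at an unadjusted p under 0.05.

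In the dark alone 1889 genes, 9.18%, passed by edgeR, of which 1048 were higher (5.09%) and 841 lower (4.09%) with Cre. The median log2 fold change in the dark was 1.32 for protein-coding genes of at most 10 kb, 0.16 for those between and -0.63 for those of at least 100 kb. Without dark dCre replicates 1 and 2 these medians were 0.69, 0.14 and -0.19, and no gene passed, with 1286 at an unadjusted p under 0.05. After light they were 0.14, 0.00 and -0.12. The order by length was therefore present with dark dCre replicate 3 as the only dark control, and it was smaller after light. With the length index as covariate the averaged medians were 0.08, 0.05 and 0.07.

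**Figure D3:**
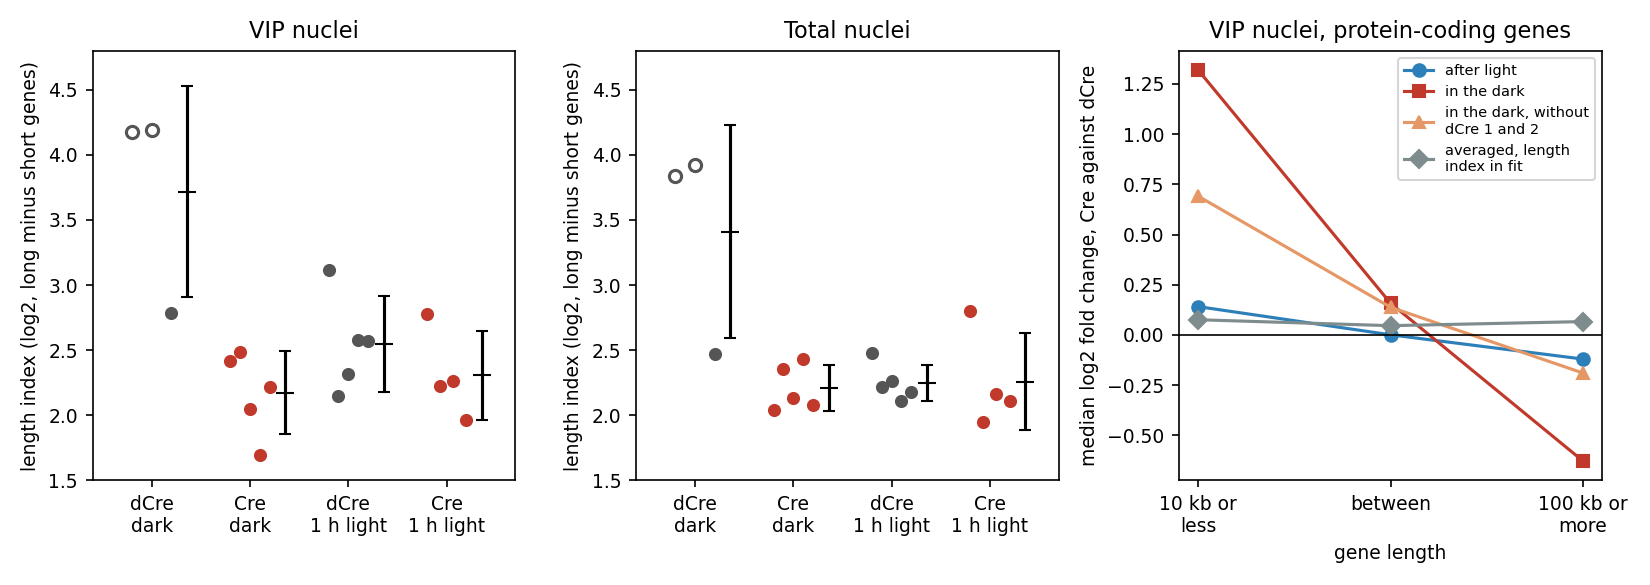
Length index of each E1 library (points; mean log2(CPM + 1) of genes of at least 100 kb minus that of genes of at most 10 kb), by virus and light condition, in VIP and in total nuclei with mean and SD (left and middle), and median log2 fold change of protein-coding genes in VIP nuclei by length class (right). Dark dCre replicates 1 and 2 stand at 4.18 and 4.19 in VIP nuclei and at 3.84 and 3.92 in total nuclei, above the other libraries, and the dark medians run from 1.32 for short to -0.63 for long genes.

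In total nuclei of the same line, genes also passed in the dark and not after light. In the dark 590 genes, 2.78%, passed in total nuclei, 319 higher (1.5%) and 271 lower (1.28%), while none passed after light. The dark medians by length were 0.85, 0.06 and -0.52, and after light all 3 were 0.01. Expression from the Flp-dependent virus is limited to cells with the VIP-driven Flp, and the share of such cells in the total fraction was not measured. The part of Cre in the dark calls of total nuclei was not tested. Averaged over light, 3 genes passed in total nuclei, or 0.0141%: Rnf187 and Prelid1 (0.00943%) were higher by 1.11 and 1.30 on the log2 scale, and C130073E24Rik (0.00471%) was lower at -2.46. Igf1 in total nuclei lay between 0 and 26.0 CPM, and its averaged log2 fold change was -0.36 ± 0.808, so a change was not detectable there.

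Among the short genes called higher on average was Npy, the neuropeptide Y precursor of cortical interneurons. Npy had 75.5, 29.3 and 172 CPM in the dark dCre libraries and 699, 380.2, 562, 1149 and 520.3 in the dark Cre libraries. After light it had 146, 312, 281, 264 and 124 CPM with dCre and 211, 765, 243 and 451 with Cre. The dark groups did not overlap and the light groups did. The averaged log2 fold change was 1.86 ± 0.321, with an edgeR adjusted p of 0.00652, and the light value was 0.89 ± 0.409, with an unadjusted p of 0.0350. Without dark dCre replicates 1 and 2 the averaged value was 1.41 ± 0.406. Crh, the corticotropin-releasing hormone gene that marks part of the VIP cells, rose by 1.04 ± 0.286 on average, with an edgeR adjusted p of 0.0474. Its level was 64.0 to 127 CPM in the dark with dCre against 225 to 354 with Cre, and the light values overlapped.

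Vip itself, the gene that defines the sorted cells, showed the same split. It had 952, 1134 and 3614 CPM in the dark dCre libraries and 7843, 5345, 7251, 13266 and 7056.4 in the dark Cre libraries. After light it had 2702, 6354, 5895, 5479 and 6466 CPM with dCre and 4266, 8768, 4387 and 6833 with Cre. The dark difference was 2.10 ± 0.496 on the log2 scale, with an edgeR adjusted p of 0.00769, and the light difference 0.17 ± 0.415. Averaged over light it was 1.14 ± 0.316, with an adjusted p of 0.0516. The average without dark dCre replicates 1 and 2 was 0.67 ± 0.394. The Vip gene spans 8.4 kb, within the short class. A difference of Vip with Cre was thus seen in the dark comparison and was not detectable after light.

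Several of the called genes had dark dCre libraries below all dark Cre libraries, while their Cre and dCre libraries overlapped after light. Rgs2, a regulator of G-protein signalling induced by activity, had 0, 0 and 1.02 CPM in the dark dCre libraries and 5.83 to 44.5 with Cre in the dark. With light it had 9.56 to 30.3 CPM with dCre and 17.4 to 34.7 with Cre. Its averaged log2 fold change was 3.02 ± 0.556 with an edgeR adjusted p of 0.00803, and the interaction of Cre with light was -5.35 ± 1.11, with an adjusted p of 0.0293. Sub1, a transcriptional coactivator, had 4.59, 6.42 and 12.4 CPM in the dark dCre libraries against 46.7 to 84.8 with Cre, and 32.1 to 93.3 against 38.4 to 69.7 after light. Qars, the glutaminyl-tRNA synthetase gene, had 1.40 to 5.78 CPM against 42.3 to 65.4 in the dark. For both, the 3 dark dCre libraries were low and the other 3 groups overlapped. For Car4 the interaction did not pass, with an edgeR adjusted p of 0.0518. Car4, a carbonic anhydrase, had 11.3 to 30.1 CPM in the dark dCre libraries and 71.7 to 136 with Cre, and 88.0 to 166 against 113 to 187 after light. Ankrd46, Tsta3, Fam50a, Nap1l2, Got1, Rpn2, Caml and Hnrnpk also rose on average, with log2 fold changes of 1.06 to 2.29. The interaction passed for Ankrd46, Got1, Caml and Hnrnpk and did not for Tsta3, Fam50a, Nap1l2 and Rpn2, with edgeR adjusted p-values of 0.0656 to 0.110.

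In all, 80 genes, 0.389%, passed the edgeR test for a Cre effect that differed between light and dark, 23 (0.112%) with a higher and 57 (0.277%) with a lower effect after light. Without dark dCre replicates 1 and 2 none passed, although the dark estimates of Rgs2, Sub1 and Qars were then still 4.30 ± 1.34, 2.34 ± 0.679 and 3.07 ± 0.908, against 0.34, -0.03 and 0.29 after light. Lin7a, a scaffold protein of synapses on chr10:107271686-107421474, had values that crossed. It had 18.3, 14.2 and 16.1 CPM in the dark with dCre and 105, 66.0, 47.6, 11.6 and 50.4 with Cre. After light it had 154, 133, 110.2, 63.9 and 142 CPM with dCre and 49.9, 29.1, 50.9 and 43.8 with Cre. After light all Cre libraries lay below all dCre libraries, and in the dark 4 of 5 Cre libraries lay above. The interaction was -3.26 ± 0.597 on the log2 scale, with an edgeR adjusted p of 0.00977, while the estimate after light, -1.47 ± 0.393, had an unadjusted p of 0.000437 and did not pass after adjustment. Ccn3, a secreted matricellular protein, and Qpct, a glutaminyl cyclase, had interactions of -4.66 ± 0.863 and -3.38 ± 0.673.

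Among the genes that fell on average, Sh3rf1 had the smallest p. Sh3rf1 encodes a ubiquitin ligase and scaffold of JNK signalling and lies on chr8:61223872-61396071. It had 176, 139 and 57.3 CPM in the dark dCre libraries and 16.1, 27.5, 31.1, 14.6 and 29.1 with Cre, which did not overlap. With light it had 47.95 to 88.4 CPM with dCre and 38.5 to 55.2 with Cre, which overlapped. The averaged log2 fold change was -1.51 ± 0.268 with an edgeR adjusted p of 0.00652, and the value without dark dCre replicates 1 and 2 was -0.97 ± 0.315. Satb1, a chromatin organiser of interneurons, was a called gene with similar estimates in both light conditions. It had 82.1, 47.8 and 42.0 CPM in the dark with dCre and 34.5, 14.1, 19.0, 5.85 and 30.7 with Cre, and 24.9 to 102 against 9.91 to 43.3 after light. Its log2 fold change was -1.46 ± 0.465 in the dark and -1.49 ± 0.454 after light, and the average of -1.48 ± 0.325 had an edgeR adjusted p of 0.0266. Without the pair of dark controls it was -1.27 ± 0.390, with an unadjusted p of 0.00207, and did not pass after adjustment. Fgd6, a guanine exchange factor for CDC42, was at 0 in the 4 light Cre libraries against 82 counts in the light dCre libraries, at least 26.0-fold lower against a floor of 3 counts over the group.

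Further named genes fell on average. Grin2b, an NMDA receptor subunit, had 1823, 1647 and 952 CPM in the dark dCre libraries and 481 to 758 with Cre. With light it had 749 to 1471 CPM with dCre and 520.0 to 1137 with Cre, which overlapped. Dlgap2, a postsynaptic scaffold, had 864 to 1836 CPM in the dark with dCre and 329 to 569 with Cre. Etl4 had 2724, 2664 and 869 CPM in the dark with dCre and 480.5 to 959 with Cre, so that dark dCre replicate 3 lay within the Cre range. Lars2, the mitochondrial leucyl-tRNA synthetase, had 4547, 1235 and 339 CPM in the dark dCre libraries and 69.7 to 409 in all other groups. For Lars2 and the importin gene Kpna1, which had 1003, 367 and 180.1 CPM there, dark dCre replicate 1 was by far the highest library. The averaged log2 fold changes of Cux1, Galnt17, Prkca, Nedd4l, Atxn1 and Spred2 lay between -1.10 and -0.90. None of these passed after light or without dark dCre replicates 1 and 2.

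**Figure D4:**
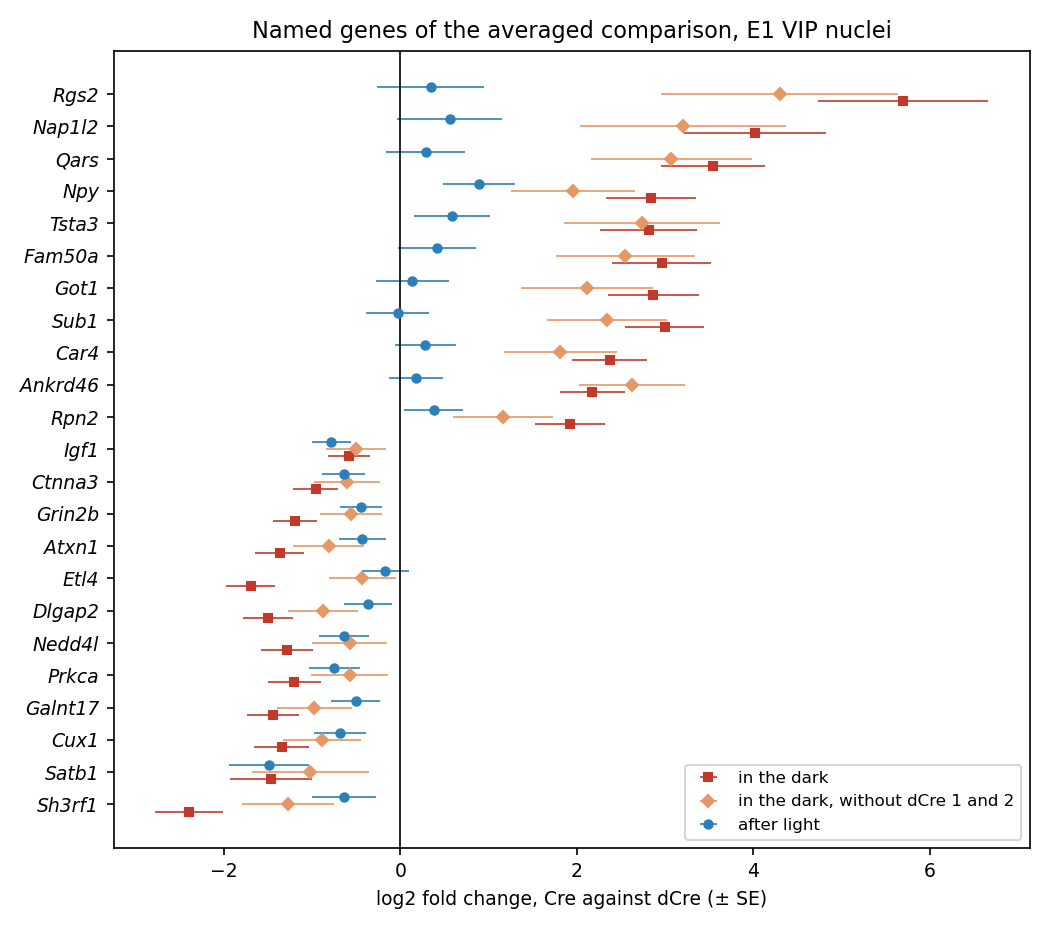
Log2 fold change, Cre against dCre, of the genes named from the averaged comparison (rows), in the dark, in the dark without dCre replicates 1 and 2, and after light, as points with standard errors. Sub1 lies at 3.00 in the dark and -0.03 after light, whereas Igf1 and Satb1 have values after light of -0.78 and -1.49.

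Genes of the IGF1 pathway were read as a list of ligands, binding proteins, receptors and downstream kinases, of which 35 of 38 were tested. On average 2 of the 35 passed, both lower, against 0.646% lower over all genes tested, and the list median was -0.31. Besides Igf1 it was Tsc1, an inhibitor of mTOR, at -0.72 ± 0.189 with an edgeR adjusted p of 0.0405, and its value after light was -0.23 ± 0.258. Igf1r, the receptor, was at -0.52 ± 0.199 with an adjusted p of 0.130, and after light at 0.08. Insr, the insulin receptor, was at -0.21 ± 0.202, and the adaptor Irs1 at -0.08 ± 0.269. The binding proteins Igfbp4 and Igfbp5 were at 1.24 ± 0.517 and 0.56 ± 0.683, and neither passed. No member of the list passed after light, where the median was -0.02, or without dark dCre replicates 1 and 2. In total-count scaling no member passed.

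Members of the synapse, channel and nuclear-retained RNA lists that passed on average were lower with Cre. In that comparison 0.646% of all genes passed as lower and 0.928% as higher. Of 2366 protein-coding genes of at least 100 kb, 83 passed as lower and 1 as higher, at a median of -0.38. Of 26 excitatory synapse genes, 6 fell and 0 rose on average, at a median of -0.52 against 0.06 over all genes. They were Grin2b, the kainate receptor gene Grik2, the scaffolds Shank1 and Homer1, the AMPA receptor subunit Gria4 and its partner Cacng2. With library sizes by total counts 3 passed and the median was -0.31. After light none passed and the median was -0.23, and without dark dCre replicates 1 and 2 none passed and the median was -0.24. Of 29 voltage-gated ion channels, Kcnq3 and Cacna1c fell at a list median of -0.47, while by total counts none passed, at -0.25, and after light none passed, at -0.19. Of 23 inhibitory synapse genes, Gphn, which encodes the scaffold gephyrin, fell at a list median of -0.14. By total counts that list had 1 member higher, 0 lower and a median of 0.09. Gphn itself was at -0.65 ± 0.161 on average and -0.00 ± 0.219 after light. With the length index as a covariate, the excitatory synapse, channel and inhibitory synapse lists had medians of -0.00, 0.10 and -0.01, and no member passed. The part of gene length in these calls was not tested. The summed level of excitatory synapse genes was 36393 to 64936 CPM in the dark dCre libraries and 22559 to 37889 CPM in the other 3 groups. Of 9 nuclear-retained long noncoding RNAs, Rian and Kcnq1ot1 fell, at a median of -0.42. By total counts 1 member of that list was higher and 0 lower, at a median of -0.22, and the median after light was 0.05.

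Marker lists of the sorted cells and of other cells were read next. None of 11 GABAergic markers passed on average, at a median of 0.33, and the median after light was 0.32. Of 15 VIP markers tested, Crh rose and Igf1, itself on the list, fell. Satb1 was the 1 of 8 somatostatin markers and Cux2 the 1 of 17 excitatory markers past the threshold, both lower. Over all genes tested 0.646% passed as lower and 0.928% as higher. Of the somatostatin markers 4 had estimates above 0 and 4 below, at a median of 0.12. Of the excitatory markers 11 lay above 0 and 6 below, at a median of 0.19. No tested member of the parvalbumin, Lamp5 and Sncg, astrocyte, endothelial, interferon, mitochondrial or heat-shock lists passed on average. Mag, a myelin gene, was at 0 in the dark dCre libraries against 292 counts with Cre, at least 44.4-fold higher. Ctss, a microglial protease, held 1 count in the dark dCre libraries, and Phlda3, a p53 target, was at 0 there against 177 counts with Cre, at least 26.9-fold higher in the dark. The summed oligodendrocyte markers were 106 to 140.2 CPM in the dark dCre libraries and 169.8 to 501 in the other 3 groups, with Mag, Opalin, Cspg4, Olig2 and Sox10 at 0 in the former. Microglial markers summed to 74.6 to 97.4 CPM against 119.7 to 219, with Tmem119, C1qb and Itgam at 0, and heat-shock genes to 58.9 to 279.7 CPM against 359 to 1117. The p53 targets summed to 189 to 212 CPM against 255 to 514. These sums were lowest in the dark controls. VIP markers summed to 5292.5 to 9327 CPM with dCre and 10710 to 23772 with Cre in the dark, which did not overlap. After light they summed to 6624 to 11195 CPM with dCre and 8374 to 16199 with Cre, which overlapped. Summed markers of other interneurons ran high in the dark controls, while the single members went both ways. Somatostatin markers summed to 500.2 to 925 CPM in the dark dCre libraries and 314 to 543 in the other 3 groups, parvalbumin markers to 647.7 to 1583 against 528.5 to 927, and Lamp5 and Sncg markers to 225 to 575 against 115 to 334. By member, 4 somatostatin markers were higher and 3 lower with Cre in the dark, at a median log2 fold change of 0.80. For Lamp5 and Sncg markers it was 4 and 2, at 1.63, and for parvalbumin markers 4 and 4, at -0.02. Chodl, Hpse, Lhx6, Ndnf, Lsp1, Krt73 and Cplx3 of these lists were at 0 in the dark dCre libraries. The part of these cell types, or of the quality of those libraries, in the calls above was not tested. All of the lists had 0 members past the threshold after light.

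Genes near Igf1 were examined because an enhancer can act on neighbours. The window was set around the Igf1 gene body, as the position of the deleted element was not available. Of 101 annotated genes within 2 Mb of Igf1, 43 were tested. On average 1810014B01Rik and Hsp90b1, an endoplasmic reticulum chaperone, were higher, in a comparison where 0.928% of all genes tested passed as higher. These genes overlap each other and reads in shared stretches may be split between them, so they are not separate observations. Hsp90b1 was at 0.92 ± 0.234 with an edgeR adjusted p of 0.0365, and after light at -0.04 ± 0.311. After light 0 of the 43 passed, and without dark dCre replicates 1 and 2 also 0.

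Igf1 in the 3 enhancer lines was set side by side. In E23 VIP nuclei, where other Igf1 enhancers were floxed, the means were 596 ± 73.8 and 757 ± 122 CPM with dCre in the dark and after light (SD, n = 4 each). With Cre they were 491 ± 216 and 621 ± 121 CPM (n = 4 each). The averaged edgeR log2 fold change was -0.28 ± 0.163, with an adjusted p of 0.876. In E123, which also carries the floxed E1, the dCre means were 416 ± 126 and 705 ± 84.8 CPM and the Cre means 295 ± 56.7 and 300.5 ± 47.3. There the averaged fold change was -0.86 ± 0.172, with an edgeR adjusted p of 0.0418, 1 of 8 genes (0.0389%) that passed in that line, 6 higher (0.0291%) and 2 lower (0.00972%). The E1 effect differed from the E23 effect by -0.40 ± 0.229, adjusted p 0.402 by edgeR, and from the E123 effect by 0.18 ± 0.234, adjusted p 1.00. Neither difference between lines was detectable for Igf1.

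**Figure D5:**
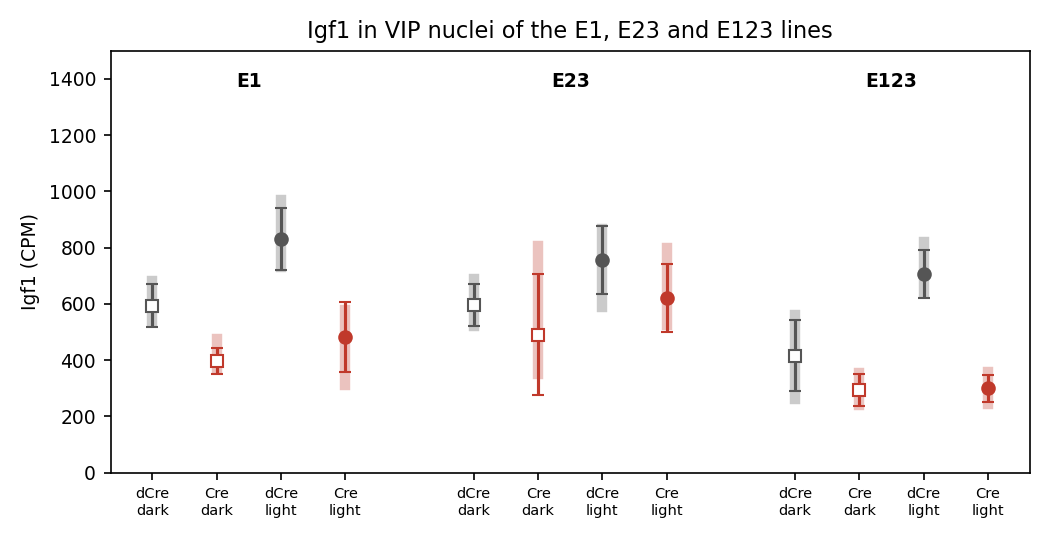
Mean Igf1 in CPM (squares in the dark, circles after light) with SD (bars) in VIP nuclei of the E1, E23 and E123 lines, by virus and light condition; shaded bands span the lowest to the highest library. In E1 the means with Cre are 397 and 482 CPM in the dark and after light, against 594 and 830.1 with dCre.

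Across all genes, 10 (0.0486%) had an averaged Cre effect that differed between E1 and E23 by edgeR, 6 upwards (0.0291%) and 4 downwards (0.0194%), and none (0%) between E1 and E123, where 930 genes had an unadjusted p under 0.05 and 13 passed in DESeq2. The 10 were Fam50a, Susd2, Tsta3, Nagpa, Jpt2, Qars, Sh3rf1, Pcdh17, Trpc5 and Gm15564, all with an adjusted p of 0.0381. Sh3rf1 differed by -1.94 on the log2 scale and Qars by 2.39. The 191 genes higher in E1 had a median log2 fold change of -0.08 in E23, and the 133 lower genes 0.07, with 0 called in that line by edgeR, where 1292 of all genes had an unadjusted p under 0.05. In E123 the same sets had medians of 0.78 and -0.61, with 184 of 191 and 126 of 133 in the same direction and 3 and 1 called. Over all genes tested, 14124 of 20585 had the same direction in E1 and E123. In E23 it was 72 of 191 and 52 of 133, against 9280 of 20585 over all genes. The dark dCre libraries of E123 also had a high length index, at 3.75 ± 0.617 (SD, n = 4). Those of E23 had 2.51 ± 0.436 (SD, n = 4). Cux2 was at -0.37 in E23 and -0.85 in E123, and Satb1 at 0.00 and -0.80. Without E1 dark dCre replicates 1 and 2, no gene passed the test of E1 against E23. The E1 averages of Qars, Tsta3 and Fam50a were then 1.67, 1.65 and 1.47, beside -0.47, -0.66 and -0.57 in E23.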

How the data were processed

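Counts of reads per gene were deposited by the authors for each library, in a table whose 96 library columns all matched a label (0 unmapped columns). Per the submitters' processing notes, cutadapt 1.18, STAR 2.5.3a, HOMER 4.9.1 and the mm10 build were used. The annotation release and the strand setting of the counting are not given in the sources used here. Of 55335 gene IDs, 181, with 0.0225% of counts, had no match in the annotation used for names, lengths and coordinates.

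The members and gene lists were chosen with earlier results of these data known, and calls on them are no independent support. All 48 VIP libraries were fitted together in edgeR 4.0.16 (R 4.3.3, limma 3.58.1) on the counts as deposited, with TMM library sizes, filterByExpr (20585 genes kept), 1 coefficient per group of line, virus and light condition, and robust quasi-likelihood F tests. The averaged Cre effect weights dark and light equally, so that light condition enters as a covariate. Total nuclei were fitted apart in the same way (21213 genes). P-values were adjusted by Benjamini-Hochberg over all genes tested, at a threshold of 0.05, and each standard error was taken from the F statistic, as the absolute log2 fold change over its root. CPM use TMM library sizes, and the permutation tests use log2(CPM + 1). Igf1 was tested alone by exact two-sided permutation of virus labels within light condition. A floor of 3 counts bounds folds against groups at 0.

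The rule for naming genes took Vip, Fos, Npas4 and Igf1 always, then from the called genes of the averaged comparison at most 12 per direction by lowest p, up to 6 per direction in the light and in the dark comparison, the 6 with the smallest interaction p, and up to 4 called members per list. Predicted genes and sex-linked controls were left out of that rule. Some genes, among them a called one that counts and list totals include, are not reported here. Other genes are named where their groups did not overlap or where 5 or fewer, or 10, passed, and those, with further members of the IGF1 and synapse lists, were chosen after their values were seen. Alternatives were relative-log and total-count library sizes, no filter on low counts, DESeq2 1.42.0, E1 libraries alone, sex or the length index as a covariate, the replicate number as a block, Igf1 relative to GABAergic markers, and libraries left out. The fitting was checked on simulated data. Tables and figures were made with Python 3.11.15, pandas 2.3.3, numpy 2.4.6 and matplotlib 3.10.9.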

Additional observations from a re-analysis of the deposited data

Results flagged for a closer look

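A library apart from the rest of its group was looked for in 160 sets of values, each 1 gene or library measure in 1 group of 4 to 10 samples, and 9 were found. Chance gives about 1 in 20. Igf1 in dark Cre replicate 2 was 476 CPM, against 369.7 to 393 in the other 4, and still below every dark dCre library. In light dCre replicate 1, Vip was 2702 CPM against 5479 to 6466, Fos was 23.8 CPM against 51.2 to 62.3, and the total count was 7751025 against 3222610 to 3982339. Tsta3 in light dCre replicate 4 was 18.9 CPM against 30.1 to 33.5. Ctnna3 in light Cre replicate 1 was 328 CPM against 269 to 274. In the dark Cre group, Nap1l2 in replicate 5 was 9.38 CPM against 40.0 to 61.5, Phlda3 in replicate 2 was 0.767 against 4.91 to 7.31, and Fgd6 in replicate 4 was 0.450 against 0 in the others.

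Named genes also stood out where the Cre effect after light differed from that in the dark by edgeR's interaction test. The differences, light minus dark on the log2 scale, were -5.35 for Rgs2, -4.66 for Ccn3, -3.38 for Qpct, -3.26 for Lin7a, -3.25 for Qars, -3.03 for Sub1, -2.73 for Got1, -2.58 for Caml, -2.08 for Hnrnpk, -1.997 for Ankrd46 and -1.92 for Hsp90b1. They were 3.99 for Lars2, 2.48 for Kpna1, 2.45 for Shank1 and 1.29 for Gphn. The value for Ctss, -7.81, rests on a dark dCre group with 1 count and is no measure of size. None of these passed without dark dCre replicates 1 and 2, where 1 dark control was left. The dark estimates of Rgs2, Sub1 and Qars were then 4.30, 2.34 and 3.07, against 0.34, -0.03 and 0.29 after light.

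Between lines, the averaged Cre effect in E1 minus that in E23 stood out for Qars at 2.39, Tsta3 at 2.36, Fam50a at 2.26 and Sh3rf1 at -1.94. Jpt2 had a fitted 9.18, which depends on dCre counts at or near 0 and is no measure of size. None of the 5 passed without dark dCre replicates 1 and 2, where the E1 averages were 1.67 for Qars, 1.65 for Tsta3 and 1.47 for Fam50a, beside -0.47, -0.66 and -0.57 in E23.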

How the results depend on the processing

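Igf1 stayed lower with Cre under every alternative tried, but its averaged call did not. It was lost with total-count library sizes (-0.50, edgeR adjusted p 0.0551), E1 libraries only (-0.72, 0.216), the length index (-0.50, 0.590) and without dark dCre replicates 1 and 2 (-0.65, 0.453). Leaving out 1 library gave -0.75 to -0.60 on average, -0.88 to -0.63 after light, -0.69 to -0.50 in the dark, -0.30 to -0.05 for the interaction, -0.47 to -0.32 for E1 minus E23 and 0.12 to 0.25 for E1 minus E123. DESeq2 called Igf1 in the dark (-0.61, adjusted p 0.0394), and relative to GABAergic markers it passed the exact permutation test after light (-0.90) and in the dark (-0.34).

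Counts of called genes moved more, and the cause was not tested beyond the settings themselves. Without dark dCre replicates 1 and 2 every count was 0. The average count of 324 was 1195 without a filter, 1326 in DESeq2, 0 with E1 libraries only, 0 with the length index and 682 with sex as a covariate. It ran from 10 without dark dCre replicate 1 to 2460 without dark dCre replicate 3, and moved over 1.5 times for 13 of 17 libraries. After light the count of 0 was 5 without a filter and 5 in DESeq2, and 0 for every library left out. The dark count of 1889 was 3178 in DESeq2 and 0 with the length index, and 68 to 3648 with 1 library left out. The interaction count of 80 was 759 without a filter, 753 in DESeq2, 1 with the length index and 22 with sex, and 1 to 1804 with 1 library left out. E1 minus E23 (10) gave 434, 326 and 0 without a filter, in DESeq2 and with the length index, and 0 to 1327 with 1 library left out. E1 minus E123 (0) gave 11 and 13 without a filter and in DESeq2, and 0 to 18. Total nuclei (3) gave 303, 192, 1, 0 and 7 without a filter, in DESeq2, with E1 libraries only, with the length index and with sex, and 0 to 1451. List members called (20) were 61, 59, 0, 0 and 34 in that order, and 1 to 75.

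The same replicate numbers in different groups showed correlations of 0.00873 to 0.286 between same-numbered libraries (7 pairs) and -0.261 to 0.200 between others (28 pairs), and not every pair passed 0.1, so the numbers were not taken to pair samples. With the replicate block, Igf1 was at -0.65 on average with an edgeR adjusted p of 0.0501. The block gave 1 gene after light, 979 in the dark, 121 for the interaction, 45 for E1 minus E23 and 5 in total nuclei.

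Of the 46 other named genes past the threshold on average, 46 passed with relative-log library sizes, 35 by total counts, 45 without a filter and 0 without dark dCre replicates 1 and 2. Signs turned for Npas4, at -0.10, -0.09 and -0.08 without dark Cre replicate 1, light Cre replicate 1 and dark dCre replicate 3 (range with 1 library left out -0.10 to 0.51), and for Lin7a, at -0.14 with E1 libraries only and -0.0191 without dark Cre replicate 1 (range -0.0191 to 0.29). Neither passed. The smallest group has 3 libraries of 50 to 100 nuclei, so small effects on weakly expressed genes were not detectable.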

Other observations

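Genes on the chromosome of Igf1 were counted among those with the smallest edgeR p-values, as a description made after the values were seen. Of the 20585 genes tested, 992 (4.82%) lie on chromosome 10. After light, 6 of the 10 genes with the smallest p were on it: Gm15910, Lin7a, Fgd6, Slc16a7, Igf1 and Lrriq1. Of the 50 and the 100 smallest, 8 and 11 were on it. For the average over light conditions with all libraries the counts were 1 of 10, 6 of 50 and 9 of 100. For the average without dark dCre replicates 1 and 2 the counts were 4 of 10, 8 of 50 and 12 of 100. In E23 they were 2, 3 and 6, and in E123 2, 3 and 5. Vip, the locus of the Flp allele carried by all groups, is on the same chromosome. None of these genes passed after light in edgeR.

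Hap1, which encodes a huntingtin-associated protein, had separate groups in opposite directions and was chosen after its values were seen. After light it had 10.998 to 20.1 CPM with dCre and 32.8 to 51.2 with Cre. In the dark it had 30.2 to 50.3 CPM with dCre and 12.6 to 29.1 with Cre. The edgeR log2 fold change was 1.40 ± 0.380 after light, with an unadjusted p of 0.000541 and an adjusted p of 0.916, and -1.17 ± 0.403 in the dark, with an adjusted p of 0.0544. Averaged over light conditions it was 0.11 ± 0.280, and -0.06 without dark dCre replicates 1 and 2. Over all genes, 0.7% had every Cre library above every dCre library after light, and 5.88% had every Cre library below in the dark.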
